A study of Danio rerio with 4 samples.

Results

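The genes described here are a chosen set of 10 zebrafish genes of haem synthesis. Of these, alas1, alas2, alad, hmbsb, uros, urod, cpox, ppox and fech encode enzymes of the pathway, and slc25a37 encodes the iron carrier mitoferrin 1. The 10 genes were chosen by gene symbol and are taken in pathway order. All 10 are among the 20390 genes of the deposited table. RNA was sequenced from whole zebrafish embryos at the 6-somite stage in 2 groups of 2 libraries. The Cre Injected embryos carried the bns298 transgene and had received cre at the 1-cell stage. In this transgene a STOP cassette between loxP sites separates the heat-inducible hsp70l promoter from npas4l, which is joined by a GGGGGLSRS linker and a P2A peptide to the reporter mCherry, and the recombinase Cre can remove the cassette. The Uninjected embryos carried the same transgene and received no cre. All embryos were raised at 28 °C and heat-shocked at 37 °C for 1 h. The number of embryos per library and whether the groups share a clutch are not given in the sources used here. Without an injected group that lacks the transgene, the effects of injection, Cre, npas4l and clutch cannot be told apart.

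Haem is an iron-containing ring that carries oxygen in haemoglobin and electrons in cytochromes. Its synthesis begins in the mitochondrion with the joining of glycine and succinyl-CoA, continues in the cytosol, and returns to the mitochondrion, where ferrochelatase inserts iron into protoporphyrin. Every cell makes haem at a low rate, and red-cell precursors make much more, through the red-cell form of the first enzyme and more iron import. Several of these genes are known from anaemic or porphyric zebrafish mutants: sauternes (alas2), yquem (urod), montalcino (ppox), dracula (fech) and frascati (slc25a37). Npas4l, which the transgene supplies, is a bHLH-PAS regulator without which zebrafish embryos form almost no blood or vessel cells.

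The values are gene read counts scaled by library and rounded, called normalised reads here, and summed to between 8933474 and 9861419 per library. Fold changes are Cre Injected over Uninjected on the scale of log2(normalised reads + 1), with limma standard errors (SE), and a gene passed the test at a Benjamini-Hochberg adjusted p under 0.05 over all 16754 tested genes. The gene npas4l is listed under the clone name CABZ01080135.1. It stood at 710 and 808 normalised reads in the Cre Injected libraries and at 370 and 279 in the Uninjected ones. These values hold endogenous and transgene reads together (log2 fold change 1.23 ± 0.16, limma adjusted p = 0.00051). That call was lost when the variances were shrunk to a single value and not to a trend with level (limma adjusted p = 0.0927). Markers of muscle, notochord, neural plate, epidermis, endothelium, hatching gland and red-cell precursors were detected in every library, as the label of whole embryos implies, save slc4a1a, which was at 0 in Uninjected replicate 1.

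A single haem synthesis gene passed the test. Transcripts of cpox, which encodes coproporphyrinogen oxidase, fell in Cre Injected embryos to 0.633 times their level in Uninjected embryos (95% interval 0.497 to 0.806), and the other 9 genes passed in neither direction. All 10 genes were above the filter on low values and were tested. Over all tested genes 6.19% were lower and 6.35% were higher, so that 1 lower and 0 higher of 10 is close to that background. The median log2 fold change was -0.16 over the 10 genes and 0 over all tested genes. Their median absolute log2 fold change was 0.38, against 0.30 over all tested genes. The replicates of the 10 genes were about as close as those of other genes, with a median within-group SD of 0.15 on the log2 scale, against 0.19. Values of the groups did not overlap for 8 of the 10 genes, 3 higher and 5 lower in Cre Injected embryos. That also held for 56.7% of all tested genes (28.0% higher and 28.8% lower), so the count is a description of the genes and not a call.

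**Figure D1:**
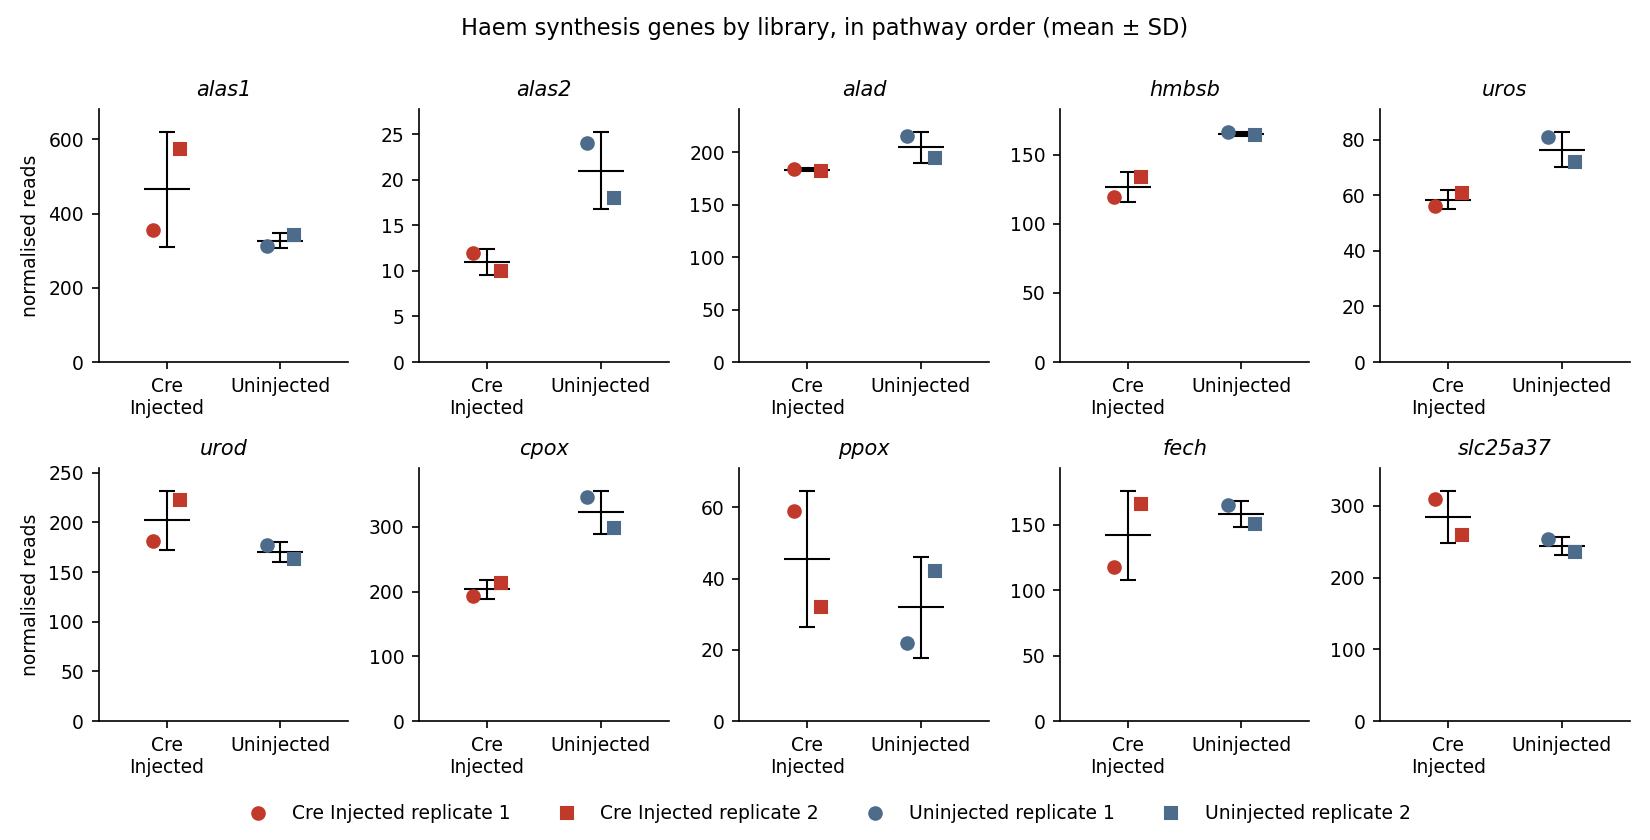
Normalised reads (y axis, from 0, own scale per gene) of the 10 haem synthesis genes in the Cre Injected and Uninjected libraries, one point per library, with the mean and SD of 2 libraries as line and bar. The groups lie apart for 8 genes and overlap for ppox and fech, and cpox shows 193 and 214 in Cre Injected against 346 and 299 in Uninjected libraries.

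The first step of the pathway is made by 2 enzymes, and their genes differed in opposite directions without passing the test. The gene alas1 (chromosome 11, 260763 to 270210, minus strand, GRCz11) encodes the 5-aminolevulinate synthase found in most tissues. It had 356 and 575 normalised reads in Cre Injected libraries, against 313 and 342 in Uninjected libraries. Both Cre Injected values lay above both Uninjected ones, but replicate 2 stood far above replicate 1, by a ratio of 1.62, against 1.09 between the Uninjected replicates. The log2 fold change was 0.47 ± 0.20 (SE; 95% interval 0.04 to 0.90 before adjustment; limma adjusted p = 0.143). That value turned on 1 library: it was 0.81 without Cre Injected replicate 1 (adjusted p = 2.95e-05) and 0.12 without Cre Injected replicate 2 (adjusted p = 0.649). A fit with a lone library in a group assumes that this library varies like the pair of the other group.

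The gene alas2 (chromosome 8, 21353878 to 21369028, plus strand) encodes the red-cell form of the same enzyme. It was the least covered of the 10 genes, with 12 and 10 normalised reads in Cre Injected libraries, against 24 and 18 in Uninjected libraries. All 4 values were low, and the groups did not overlap. Treated as counts, the lower Uninjected value of 18 has a 95% exact Poisson interval of 10.7 to 28.4, for counting error only. The higher Cre Injected value of 12 has one of 6.20 to 21.0. The intervals of these closest single libraries overlap, and the groups as a whole were not compared by counting error. The log2 fold change was -0.87 ± 0.47 (SE; 95% interval -1.90 to 0.17; limma adjusted p = 0.255). As a fold, the interval ran from 0.268 to 1.12, so the size of any difference is poorly bounded on the lower side.

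Within each library the ratio of alas1 to alas2 was compared as a log2 value minus the mean of the Uninjected libraries, which removes gene length and library scaling. It was 0.87 and 1.80 in Cre Injected libraries, against -0.26 and 0.26 in Uninjected libraries, a mean difference of 1.33. The groups did not overlap, and no test was made of this difference, which was chosen after the values were seen.

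The cytosolic steps are encoded by alad, hmbsb, uros and urod, and none of these genes passed the test. The gene alad (chromosome 5, 54482325 to 54497319, minus strand) encodes the dehydratase that joins a pair of 5-aminolevulinate molecules into porphobilinogen. It had 184 and 182 normalised reads in Cre Injected libraries, against 215 and 194 in Uninjected libraries. The Cre Injected values were nearly equal and lay just under the Uninjected ones. Its log2 fold change was -0.16 ± 0.17 (SE; 95% interval -0.52 to 0.21; limma adjusted p = 0.577).

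The gene hmbsb (chromosome 15, 23511407 to 23529945, minus strand) encodes hydroxymethylbilane synthase, which links porphobilinogen units into a chain. It had 119 and 134 normalised reads in Cre Injected libraries, against 166 and 164 in Uninjected libraries. The groups did not overlap, with ratios between replicates of 1.13 in Cre Injected and 1.01 in Uninjected libraries. Treated as counts, Cre Injected replicate 2 has a 95% exact Poisson interval of 112 to 159 and Uninjected replicate 2 one of 140 to 191. These are the closest libraries of the 2 groups, and their intervals overlap. The groups as a whole were not compared by counting error. The log2 fold change was -0.38 ± 0.19 (SE; 95% interval -0.79 to 0.02; limma adjusted p = 0.197). On the other strand hmbsb overlaps si:dkey-182i3.8 and si:dkey-182i3.9, and the sources used here do not say whether counting used strand, so reads of these genes may not be fully separated. Those genes had log2 fold changes of 0.58 and 0.39, opposite in sign to hmbsb, but neither passed (limma adjusted p = 0.15 and 0.334). The paralogue hmbsa had 154 and 192 normalised reads in Cre Injected libraries, against 227 and 217 in Uninjected libraries. Its log2 fold change of -0.37 ± 0.18 (SE; limma adjusted p = 0.197) was almost that of hmbsb. The ratio of hmbsb to hmbsa differed between the groups by -0.02 on the log2 scale, with 0.06 and -0.09 in Cre Injected libraries, against -0.02 and 0.02 in Uninjected libraries, and the groups overlapped.

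The gene uros (chromosome 12, 48674381 to 48682751, plus strand) encodes uroporphyrinogen III synthase, which closes the ring. It had 56 and 61 normalised reads in Cre Injected libraries, against 81 and 72 in Uninjected libraries. Both Cre Injected values were below both Uninjected ones, and the log2 fold change was -0.38 ± 0.25 (SE; 95% interval -0.92 to 0.16; limma adjusted p = 0.343). The gene urod (chromosome 2, 27556168 to 27575803, minus strand) encodes uroporphyrinogen decarboxylase, which trims the side chains of the ring. It had 181 and 223 normalised reads in Cre Injected libraries, against 177 and 163 in Uninjected libraries. It was the one cytosolic gene of the set whose values were higher in Cre Injected embryos, and replicate 1 lay just above Uninjected replicate 1. Its log2 fold change was 0.24 ± 0.18 (SE; 95% interval -0.15 to 0.63; limma adjusted p = 0.412).

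The last steps take place in the mitochondrion, and the clearest difference of the pathway stood at their start. The gene cpox (chromosome 8, 18601252 to 18613948, minus strand) encodes the oxidase that turns coproporphyrinogen III into protoporphyrinogen IX in the space between the mitochondrial membranes. It had 193 and 214 normalised reads in Cre Injected libraries, against 346 and 299 in Uninjected libraries. The gap between the groups was wider than the distance between the replicates of either group. The levels averaged 203.5 ± 14.8 in Cre Injected and 322.5 ± 33.2 in Uninjected embryos (SD, n = 2 each), a log2 fold change of -0.66 ± 0.16 (SE; 95% interval -1.01 to -0.31; limma adjusted p = 0.0192). The direction held whichever library was left out, with log2 fold changes of -0.76 to -0.55. The call was lost without Uninjected replicate 1 (-0.55, adjusted p = 0.259) and without Uninjected replicate 2 (-0.76, adjusted p = 0.107). It was also lost when the variances were shrunk to a single value and not to a trend with level (adjusted p = 0.141).

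Against its neighbour before it in the pathway, the log2 ratio of cpox to urod minus the Uninjected mean was -0.83 and -0.98 in Cre Injected libraries, against 0.05 and -0.05 in Uninjected libraries. The difference of -0.90 was many times the spread within either group, and a ratio within a library does not depend on library scaling. No test was made of this ratio, which was chosen after the values were seen.

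The gene ppox (chromosome 16, 42289076 to 42306597, minus strand) encodes protoporphyrinogen oxidase, which makes protoporphyrin IX. It had 59 and 32 normalised reads in Cre Injected libraries, against 22 and 42 in Uninjected libraries. The groups overlapped, and the replicates differed by ratios of 1.84 in Cre Injected and 1.91 in Uninjected libraries, the largest of the 10 genes in both groups. The log2 fold change was 0.50 ± 0.41 (SE; 95% interval -0.38 to 1.38; limma adjusted p = 0.453), and it ranged from 0.05 to 0.95 over the fits without 1 library. No difference in either direction was detected for ppox in these libraries.

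The gene fech (chromosome 21, 1647990 to 1670264, plus strand) encodes ferrochelatase, the enzyme that inserts the iron. It had 118 and 166 normalised reads in Cre Injected libraries, against 165 and 151 in Uninjected libraries. The groups overlapped, since Cre Injected replicate 2 was the highest of all 4. The log2 fold change was -0.17 ± 0.21 (SE; 95% interval -0.62 to 0.28; limma adjusted p = 0.628), and its sign turned to 0.07 without Cre Injected replicate 1.

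The gene slc25a37 (chromosome 8, 50190742 to 50217915, plus strand) encodes mitoferrin 1, which brings iron into the mitochondria of red-cell precursors. It had 310 and 259 normalised reads in Cre Injected libraries, against 253 and 235 in Uninjected libraries. The Cre Injected values lay above the Uninjected ones, narrowly so for Cre Injected replicate 2 and Uninjected replicate 1. The log2 fold change was 0.22 ± 0.16 (SE; 95% interval -0.13 to 0.56; limma adjusted p = 0.41). For slc25a28, which encodes mitoferrin 2, the form of other tissues, the log2 fold change was 0.01 ± 0.15 (SE; limma adjusted p = 0.968).

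**Figure D2:**
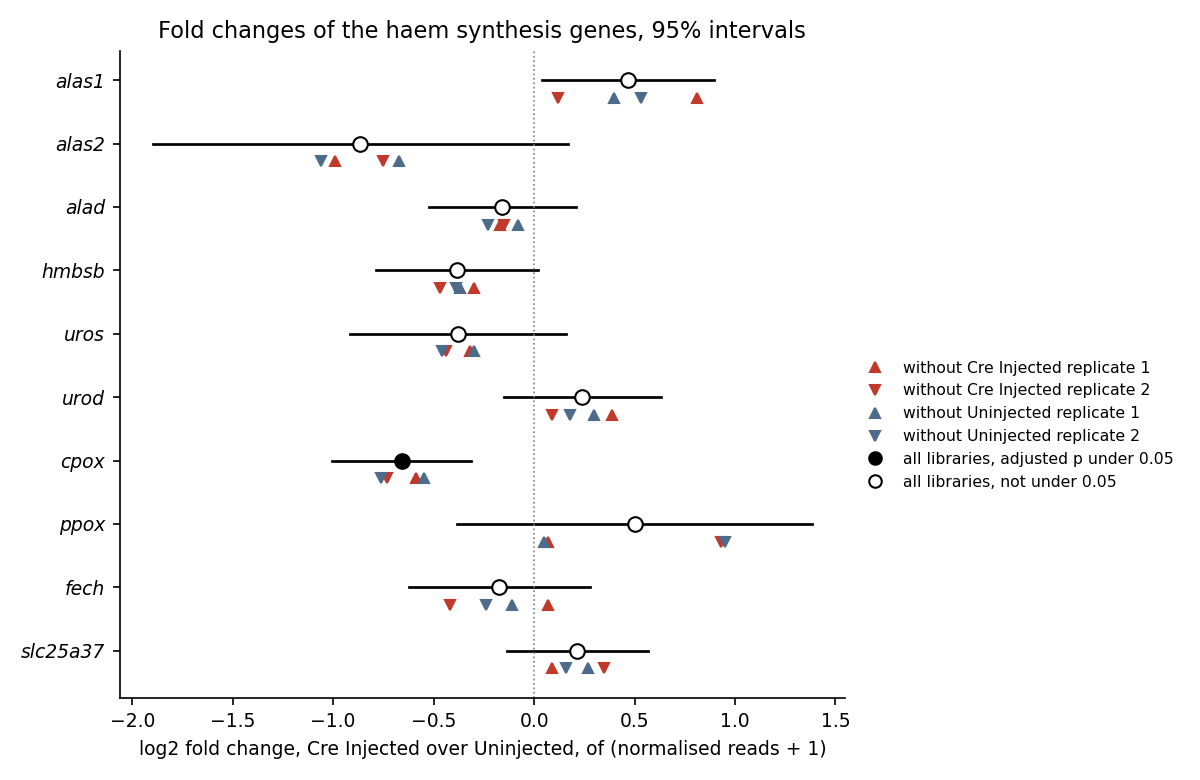
Log2 fold changes, Cre Injected over Uninjected (x axis), of the 10 genes in pathway order from top to bottom, with 95% limma intervals; triangles give the value when 1 library is left out. The interval of cpox (-1.01 to -0.31) lies wholly under 0, that of alas2 is the widest, and the values without 1 library spread most for ppox, from 0.05 to 0.95.

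The estimates of the genes did not share a sign, but only cpox passed, and differences among the genes were not tested. Log2 fold changes were below 0 for 6 genes and above 0 for 4, from -0.87 for alas2 to 0.50 for ppox. Along the pathway, alad, hmbsb and uros were below 0, urod was above it, cpox was below it and ppox was above it. The summed values of the 10 genes were 1588 and 1856 in Cre Injected libraries, against 1762 and 1680 in Uninjected libraries, so the sums overlapped. Of the genes on chromosome 8, cpox and alas2 had lower values and slc25a37 higher ones. The intervals of 7 genes, alas1, alad, hmbsb, uros, urod, fech and slc25a37, stayed within 1 on the log2 scale on both sides, so a change of 2-fold lies outside each of them taken singly. The intervals of alas2 and cpox reached past -1 and that of ppox past 1.

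**Figure D3:**
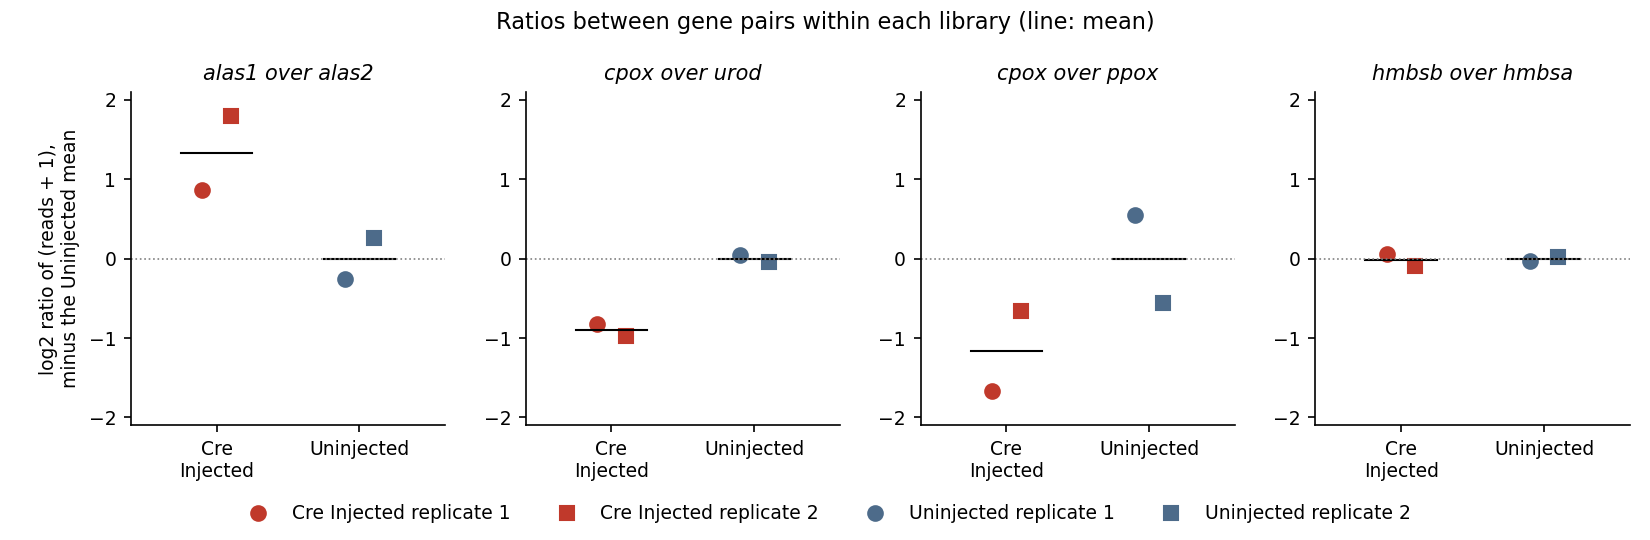
Log2 ratios of gene pairs within each library minus the mean of the Uninjected libraries (y axis), for Cre Injected and Uninjected libraries, one point per library and a line at the mean. The ratio of cpox to urod lies at -0.83 and -0.98 in the Cre Injected libraries and the ratio of alas1 to alas2 at 0.87 and 1.80, while that of hmbsb to hmbsa stays between -0.09 and 0.06 and that of cpox to ppox varies widely between replicates.

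Markers of several cell types, red-cell precursors among them, differed between the same libraries, and their part in the values of the haem synthesis genes was not tested. In bulk samples of whole embryos, fewer cells of a type and less RNA per cell cannot be told apart. Of the red-cell precursor markers, 9 were in the table and 8 were tested. Of these, 1 (cahz) was higher and 3 (hbbe3, hbae3 and sptb) were lower. Over all tested genes 6.35% were higher and 6.19% lower. Their summed values were 1048 and 1050 in Cre Injected libraries, against 1081 and 1083 in Uninjected libraries, mostly from cahz and from klf17, which the hatching gland also expresses. Every gene of the deposited table reached at least 5 in some library, so a marker at 0 throughout could not appear in it. The marker names hbbe1.1 and hbae1.1 were not found. The embryonic globin gene hbae3 had 14 and 4 normalised reads in Cre Injected libraries, against 68 and 72 in Uninjected libraries, and hbbe3 had 8 and 10, against 60 and 68. Both of these globin genes fell (limma adjusted p = 0.00239 for hbae3 and 0.00094 for hbbe3). Of 11 embryonic globin names only 3 were found in the data. The remaining gene, hbbe1.2, was too low to test, with 2 and 3 normalised reads in Cre Injected libraries, against 10 and 5 in Uninjected libraries. The red-cell regulator gata1a, which drives alas2 and globin genes, had 28 and 36, against 68 and 52 (log2 fold change -0.88 ± 0.31, SE; limma adjusted p = 0.0846). The value of hbae3 moved by over 1.5 times when Cre Injected replicate 1 was left out (log2 fold change -3.83) and when Cre Injected replicate 2 was (-2.24).

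The counts of the other marker lists stand beside shares of 6.35% higher and 6.19% lower over all tested genes. Of the epidermis markers 3 of 5 were lower and 0 higher, with summed values of 98607 and 120531 in Cre Injected libraries, against 165735 and 160211 in Uninjected libraries. Of the neural plate markers 3 of 6 were lower and 0 higher, with sums of 4597 and 4495 in Cre Injected libraries, against 5455 and 5490 in Uninjected libraries. Of the hatching gland markers 3 of 4 were lower and 0 higher, with sums of 1450 and 1068 in Cre Injected libraries, against 2213 and 2168 in Uninjected libraries. The lower genes of these lists were krt4, tp63 and epcam in the epidermis, sox3, sox19a and pax6a in the neural plate, and he1.1, cap1 and 1 of the 2 genes listed as ctslb in the hatching gland. Of the muscle and somite markers, acta1a and tnnc2 were lower and msgn1 was higher, out of 6, with sums of 5007 and 4507 in Cre Injected libraries, against 5571 and 5291 in Uninjected libraries. The sums of these 4 lists were thus lower in both Cre Injected libraries than in both Uninjected ones. Sums were higher in both Cre Injected libraries for the endothelium (827 and 932, against 758 and 654) and myeloid cells (326 and 370, against 234 and 236). The endothelium sum was higher through etv2 (416 and 490, against 236 and 144), the higher gene of that list. Log2 fold changes of kdrl (-0.18), fli1a (-0.19) and cdh5 (-0.59) were below 0 and did not pass. In myeloid cells lcp1 was higher (293 and 351, against 179 and 128) and spi1b lower (33 and 19, against 55 and 108). The sum of the yolk syncytial layer and endoderm was also higher in both Cre Injected libraries (70890 and 47961, against 45693 and 45343). Most of it came from apobb.1 (68049 and 45384, against 40542 and 39553), which did not pass (limma adjusted p = 0.0741). In the same list apoa2 was lower (1540 and 1342, against 4001 and 4680). The sums of the notochord overlapped (3989 and 3048, against 3207 and 3248). Of the other markers, 1 of 7 was higher and 2 were lower for the yolk syncytial layer and endoderm. The higher gene, sox32, had 16 and 93 normalised reads in Cre Injected libraries, against 3 and 0 in Uninjected libraries. It reached the filter on low values only in the Cre Injected libraries, so its call could only be higher. The lower gene apoea had 9 and 7, against 67 and 132. It reached the filter only in the Uninjected libraries, so its call could only be lower. For the endothelium 1 of 4 was higher, and for the notochord 0 of 4 passed. For myeloid cells 1 of 2 was higher and 1 was lower.

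Lists of genes that supply, use or neighbour the pathway held 119 tested genes, of which 5 were higher and 19 lower, with a median log2 fold change of -0.11, where 6.35% of all tested genes were higher and 6.19% lower. Of 21 carriers, chaperones and paralogues that work on the haem pathway itself, tmem14cb fell and the other 20 passed in neither direction. In mammals TMEM14C moves a porphyrin precursor into the mitochondrial matrix, next to the step of ppox. The related gene tmem14ca did not pass, with 42 and 30 normalised reads in Cre Injected libraries, against 35 and 37 in Uninjected libraries (log2 fold change -0.02). The gene tmem14cb had 28 and 55 normalised reads in Cre Injected libraries, against 90 and 91 in Uninjected libraries (log2 fold change -1.18 ± 0.32, SE; limma adjusted p = 0.0325). That call was lost without Uninjected replicate 1 (-1.19), Uninjected replicate 2 (-1.18) or Cre Injected replicate 1 (-0.71). Next by p were abcg2a (-1.08) and abcg2c (-0.44), related to a mammalian porphyrin exporter, and clpxb (-0.40), whose mammalian relative activates the first enzyme of the pathway. Their limma adjusted p were 0.0623, 0.191 and 0.152. The related gene clpxa had a log2 fold change of the other sign, 0.23 (limma adjusted p = 0.317). Without Cre Injected replicate 1 abcg2a passed (-1.18), and without Cre Injected replicate 2 clpxb did (-0.55).

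Of 17 tested genes for iron uptake, storage and sensing, 7 fell and 0 rose, where 6.19% and 6.35% of all tested genes did, and the median log2 fold change was -0.26. The transferrin receptor gene tfr1a, needed for iron uptake by zebrafish red cells, had 24 and 28 normalised reads in Cre Injected libraries, against 62 and 53 in Uninjected libraries. The ferroportin gene slc40a1, for iron export, had 134 and 101, against 207 and 219 (log2 fold change -0.87 ± 0.20, SE; limma adjusted p = 0.0135). The other 10 genes passed in neither direction. Among them, the transferrin receptor gene tfr1b had 266 and 252 normalised reads in Cre Injected libraries, against 232 and 274 in Uninjected libraries (log2 fold change 0.04). The transferrin gene tfa (-0.06) and the ferritin gene fth1a (0.09) did not pass either. Genes of import and of export were thus among the 7 that fell, while tfr1b was not. The 7 also held the iron transporter gene slc11a2 (-0.51), the ferritin-turnover gene ncoa4 (-0.48) and the iron regulatory protein gene aco1 (-0.77). The rest were the transferrin receptor gene tfr2 (-1.95) and the ferritin-like gene zgc:198419, which is fthl28 in the table of gene names. The last rests on 4 and 1 normalised reads in Cre Injected libraries, against 24 and 20 in Uninjected libraries. For tfr2 the values were 7 and 5 in Cre Injected libraries, against 30 and 22 in Uninjected libraries. Both genes reached the filter of 10 only in the Uninjected libraries, so their calls could only be lower. With a filter of 30 in 2 libraries, 5 of 15 tested genes of this list were lower. The log2 fold change of zgc:198419 was -2.86, but -3.52 without Cre Injected replicate 1 and -2.20 with Cre Injected replicate 2 left out. Without Uninjected replicate 1, or without Uninjected replicate 2, 0 of the 7 passed, and without Cre Injected replicate 2 aco1 did not (-0.55).

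Over all tested genes 12.5% passed in either direction, and the counts of the remaining lists are given beside that share. Of 16 iron-sulphur cluster genes the ferredoxin gene fdx1 rose (0.65), while fdxr (-0.73), fxn (-0.61) and ISCU (-0.27) did not pass at adjusted p of 0.071, 0.0904 and 0.133. Of 11 genes for haem breakdown and export, the haem-binding protein gene hebp2 (-0.99) and the haem transporter relative flvcr2b (-1.01) fell, and hmox2b (0.38) and flvcr2a (-0.69) did not pass at adjusted p of 0.152 and 0.209. Of 12 genes that use haem outside globin, cox15, which makes haem A (-1.24), sdhc of respiratory complex II (-1.01) and the cytoglobin gene cygb1 (-0.75) fell, and the cytochrome c gene cycsb (0.57) did not pass, at adjusted p of 0.0573. Of 21 red-cell regulator and membrane genes, lmo2 (0.96), zfpm1 (0.49) and cahz (0.59) rose and the spectrin gene sptb fell, with 2 and 9 normalised reads in Cre Injected libraries, against 48 and 51 in Uninjected libraries. That last gene reached the filter of 10 only in the Uninjected libraries, so its call could only be lower. Of 19 enzymes of the tricarboxylic acid cycle and pyruvate dehydrogenase, which share the mitochondrion with the pathway, cs (-0.60), mdh2 (-0.95) and pdhb (-0.62) fell and fh rose (0.51). Without Uninjected replicate 1 the calls of fdx1 (0.43), flvcr2b (-1.06), cox15 (-1.01), sdhc (-1.15), lmo2 (0.74), zfpm1 (0.50), sptb (-3.25), cahz (0.65), cs (-0.54), pdhb (-0.49) and fh (0.43) were lost. Without Uninjected replicate 2 those of fdx1 (0.86), hebp2 (-0.97), flvcr2b (-0.96), cox15 (-1.46), sdhc (-0.86), cygb1 (-0.60), zfpm1 (0.49), sptb (-3.16), cahz (0.53), cs (-0.66), mdh2 (-0.89), pdhb (-0.75) and fh (0.59) were lost. Without Cre Injected replicate 1 the call of zfpm1 was lost (0.37) and cycsb (0.90) and ISCU (-0.29) passed, and sptb moved to -2.34, against -4.07 without Cre Injected replicate 2.

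**Figure D4:**
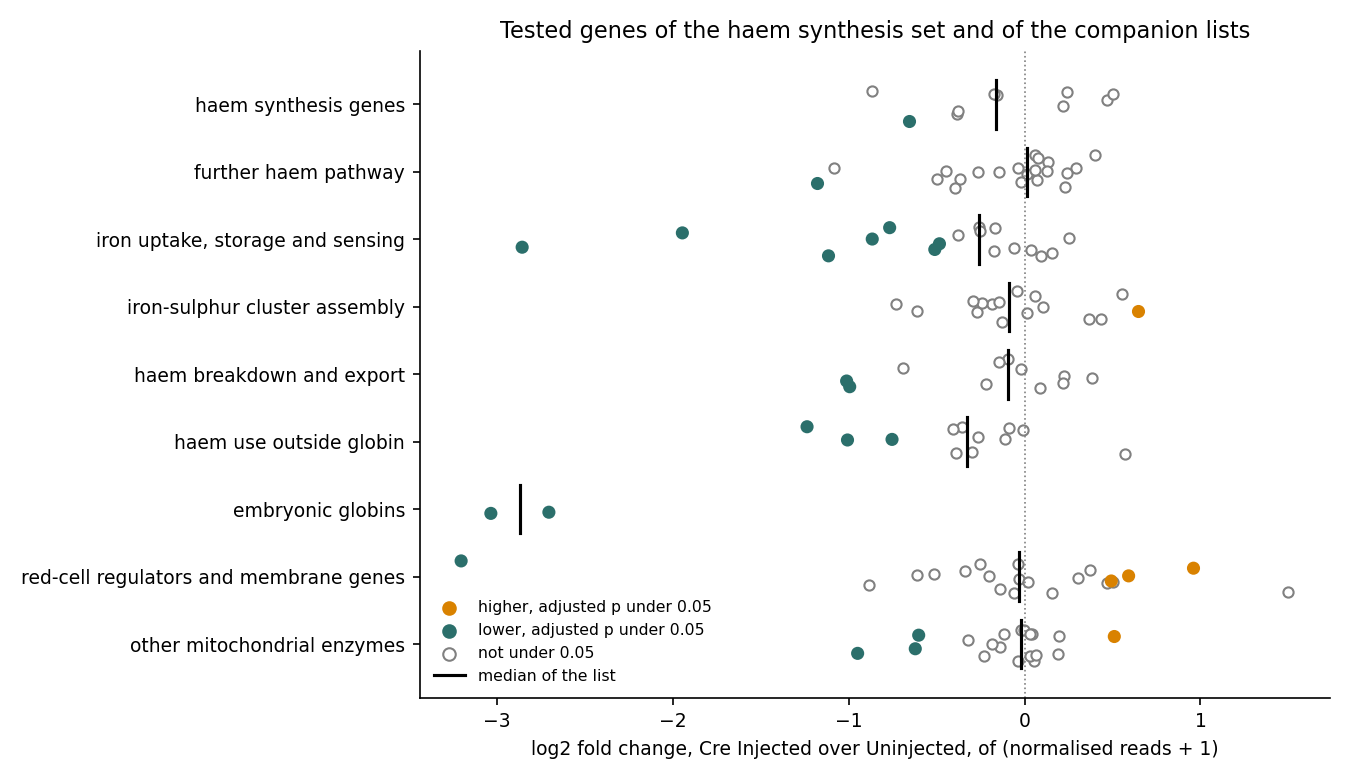
Log2 fold changes, Cre Injected over Uninjected (x axis), of every tested gene of the haem synthesis set and of 8 lists of related genes, one point per gene, with a line at the median. The haem synthesis genes spread on both sides of 0 with cpox as the one call, the iron genes have 7 calls, all lower, and the globin genes hbae3 and hbbe3 lie at -3.03 and -2.70.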

How the data were processed

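Per the labels' protocols, 10 ng of total RNA from whole embryos went into each stranded library, sequenced from a single end over 75 bases. The deposited table gives a whole-number score per gene and library, read here as gene counts scaled by the authors with a factor per library and then rounded. This reading rests on the values alone: some whole numbers are missing at even spacing in the Cre Injected columns and too frequent at even spacing in the Uninjected columns, which gave estimated size factors of 0.984, 0.985, 1.02 and 1.03. The submitters' processing notes name STAR 2.6.0c, featureCounts 1.6.0, Trimmomatic 0.36, DESeq2 1.14.1 and the build GRCz11, without saying how each was used. Counting intervals treat the values as counts and cover counting error only.

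Groups came from the column titles. Nothing says that replicates are separate clutches, so the p-values reflect the spread among these samples alone, which may be technical in origin. Replicates differed beyond counting noise (mean chi-square per gene 12.2 in Cre Injected and 6.34 in Uninjected libraries). Because the values are not raw counts, limma 3.58.1 in R 4.3.3 was run on log2(value + 1), using robust shrinkage towards a mean-variance trend. Genes were tested where 2 or more libraries reached a value of 10. Fold changes on this scale understate the change of low genes. In simulated data for this comparison over 16617 genes, the fit called 57 of 98 genes with a 2-fold change, 98 of 99 with a 4-fold change and 5 of 16420 with none. Every simulated gene had the same dispersion, set beforehand and not estimated from these libraries. The real replicates varied unevenly between genes, with a median chi-square per gene of 2.06 in Cre Injected and 1.28 in Uninjected libraries, far under the means. These rates may therefore be better than those of the real fit.

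The haem synthesis genes, the 8 lists of related genes, the markers and the tests were chosen with earlier results of these data known. In each list every gene past the threshold was named, and those of smallest p until 4 were named. The genes hmbsa, slc25a28, gata1a, tal1, klf1, klf17, drl, nfe2, slc4a1a, tfr1b, tfa, fth1a, tmem14ca, clpxa and hbbe1.2 were named after their values were seen. So were the genes that overlap hmbsb, the markers of other cell types and the gene pairs. List names were matched by symbol, then through a table of gene names, and 129 related genes were found for 154 names. Figures were drawn with matplotlib 3.10.9.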

Additional observations from a re-analysis of the deposited data

How the results depend on the processing

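Over 15 alternative settings, the log2 fold changes of the 10 haem synthesis genes kept their sign, save fech, which ranged from -0.42 to 0.07 when 1 library was left out. The settings were 2 other pseudocounts, no or a stricter filter, 4 scalings, 2 forms of shrinkage, the omission of each library and a replicate block. alas2 has no value under the stricter filter. Without the mean-variance trend no haem synthesis gene was called (0 lower; cpox -0.66, adjusted p = 0.141), 0 related genes were higher and 1 was lower, and over all tested genes 30 were higher and 68 lower. Leaving out 1 library gave 0 to 1 higher and 0 to 1 lower haem synthesis genes, with log2 fold changes of 0.12 to 0.81 for alas1 and -0.76 to -0.55 for cpox. It gave 0 to 11 higher and 2 to 26 lower related genes, and 228 to 2064 higher and 210 to 1871 lower genes over all tested. Of the 24 calls among the related genes, 5 of the same genes were kept without Uninjected replicate 1, 3 without Uninjected replicate 2, 22 without Cre Injected replicate 1 and 23 with Cre Injected replicate 2 left out. Related genes called higher numbered 2 with non-robust shrinkage and 2 with scaling by the total without mitochondrial and structural RNA genes. Under other scalings or non-robust shrinkage the calls of tmem14cb, slc11a2, ncoa4, fdx1, zfpm1 and fh ended, at adjusted p of 0.0503 to 0.092. The cause of these differences was not tested.

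The replicate numbers are not shown to pair the libraries: the deviations of same-numbered libraries correlated at -0.03 across genes. With the replicate block cpox stayed lower (-0.66, adjusted p = 0.0156), alas1 had an adjusted p of 0.0719, and cycsb passed (adjusted p = 0.0138). No call among the haem synthesis genes changed under the block.

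Values of alas2 were 10 to 24 normalised reads, and the within-group SD of ppox was 0.62 on the log2 scale. No gene lengths were used, so levels of different genes were not compared.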
